A study of Mus musculus with 6 samples.

Results

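The genes described here carry out bile acid synthesis, bile acid uptake and export, and the feedback control through the nuclear receptor FXR. They were chosen by name, 31 of the 16135 genes in the table, and all 31 were found. Of these, 30 had a mean of at least 1 FPKM (fragments scaled to transcript length and library size) over the 6 libraries and were tested together with the other genes that passed this filter, 9818 in all. Slco1a1 lay below the filter and is given as values. RNA was taken from whole liver of ACSS2-HKO mice (hepatocyte-specific knockout of Acss2, 3 libraries) and of ACSS2-flox mice, in which the gene is floxed (3 libraries). ACSS2 is the enzyme that makes acetyl-CoA from acetate outside the mitochondria. Both genotypes had the Lieber-DeCarli ethanol liquid diet over 10 days together with 1 ethanol binge, so no library stands for a mouse without alcohol. The Cre driver is not given in the sources used here, nor the age and sex of the mice or whether ACSS2-flox mice carried Cre. Separate animals are not named for the libraries either, so p-values measure the spread between these libraries, which may be technical. Where single livers are named below, each stands for a library, and the spread between livers is that between libraries.

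Hepatocytes make bile acids from cholesterol by a classic pathway that starts with CYP7A1 and an acidic pathway that starts with CYP27A1, conjugate them to taurine or glycine, and pump them into the canaliculus, the channel between hepatocytes that drains into bile. Bile acids return from the gut in portal blood and are taken up again across the sinusoidal membrane, which faces the blood. FXR, the receptor bound by bile acids, induces the canalicular pump and the repressor SHP. SHP and an intestinal FGF signal received by FGFR4 with its co-receptor beta-Klotho lower the expression of Cyp7a1 and Cyp8b1.

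Acss2 itself (chromosome 2, 155517948 to 155585724 on the plus strand, mm10) had 50.6, 38.4 and 45.7 FPKM in ACSS2-HKO livers, against 87.8, 61.5 and 58.5 FPKM in ACSS2-flox livers. All ACSS2-HKO values lay below all ACSS2-flox values, at -0.60 ± 0.21 (log2 fold change ± SE, limma adjusted p = 0.637). Implied library totals ran from 33717125 to 39474527 fragments. ACSS2-HKO replicate 3 and ACSS2-flox replicate 1 stood apart, at 27.6 and -47.7 on the first principal component (47.2% of the variance), with the other libraries between 2.51 and 8.49. The plot of fold changes gives each gene's range as each library is left out.

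Among the 31 genes, those with separate groups were an enzyme, uptake carriers and exporters. Cyp7a1, Slco1a4 and Slco1a1, the first enzyme and a pair of uptake carriers, read lower in every ACSS2-HKO liver than in any ACSS2-flox liver. Abcc3 and Slc51b, which export bile acids to the blood, read higher in every ACSS2-HKO liver. No member passed the test across all genes: 0 of 30 had a limma adjusted p under 0.05, as did 0 (0.0%) of all tested genes, and the lowest adjusted p of a member was 0.607. The smallest adjusted p of any gene was 0.452. Limma voom on fragment counts recovered from the FPKM values also called 0 genes, with 701 at an unadjusted p under 0.05. At that unadjusted threshold 3 of 30 members were higher (Abcc3, Acox2 and Abcc4) against 6.09% of all tested genes, and 2 of 30 were lower (Slco1a4 and Cyp7a1) against 1.5%, or 5 of 30 against 7.59% in either direction. The groups did not overlap for 2 of 30 tested members in the higher direction against 12.5% of all tested genes, and for 2 of 30 in the lower direction against 2.94%.

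Log2 fold changes, of FPKM + 1 and always ACSS2-HKO minus ACSS2-flox, were positive for 17 tested members and negative for 13, whereas 66.0% of all tested genes had a positive value. The member median was 0.07, beside 0.10 over all tested genes. These medians depend on the scaling. Median-ratio scaling moved the median of all genes by -0.11, to -0.01, and the member median became -0.05. It also changed the share of higher genes among those at an unadjusted p under 0.05, which was 80.3% with the deposited scaling and 55.2% with median-ratio scaling, and left 1 member higher and 2 lower at that threshold. Because the pseudocount of 1 makes fold changes of weakly expressed genes smaller, their FPKM values are the better guide.

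**Figure D1:**
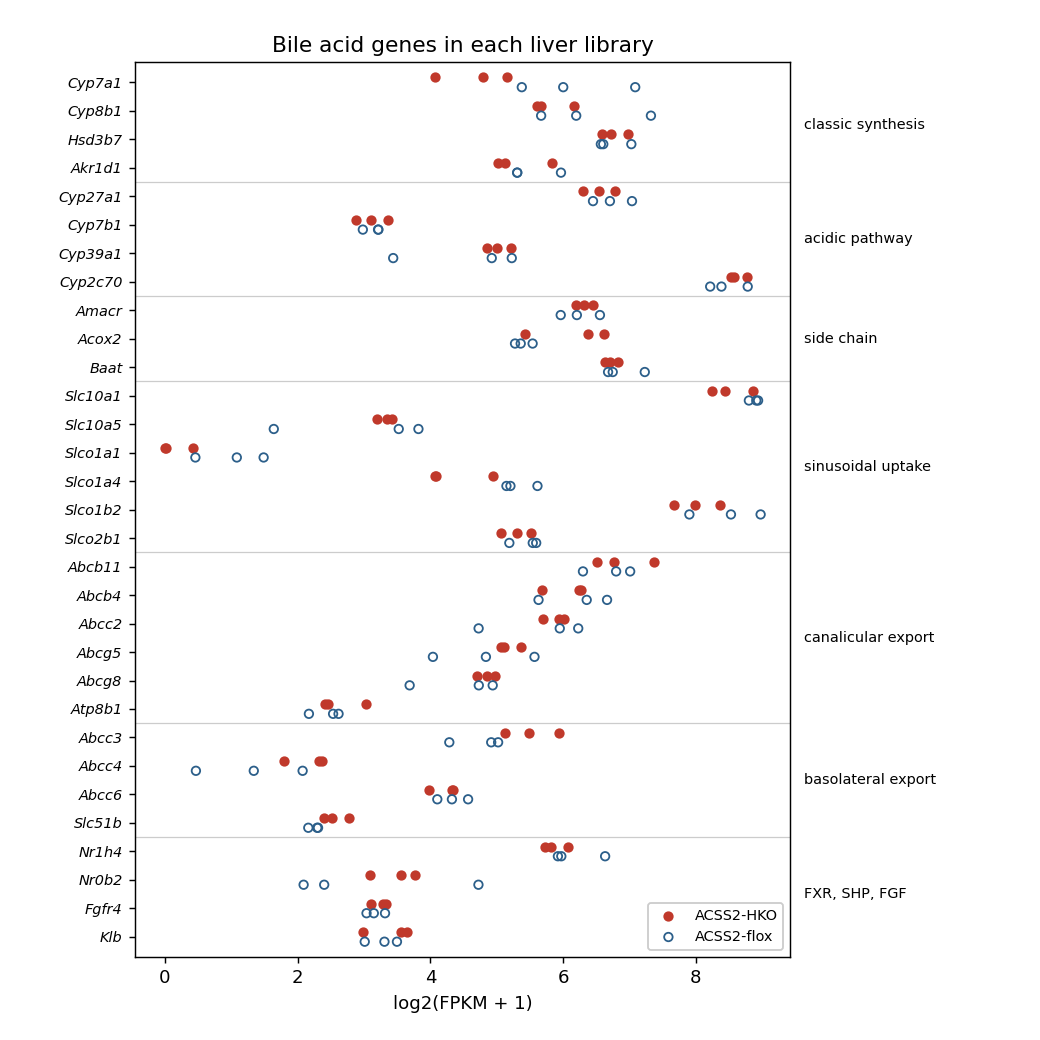
Level of each of the 31 genes in each liver library, as log2(FPKM + 1) on the horizontal axis, with genes down the page in the order of their roles; filled points are ACSS2-HKO libraries and open points ACSS2-flox libraries (3 each). The filled and open points are separate for Cyp7a1, Slco1a1, Slco1a4, Abcc3 and Slc51b and overlap for the other genes.

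In the classic pathway, Cyp7a1, the rate-limiting cholesterol hydroxylase, had 34.6, 26.7 and 15.8 FPKM in ACSS2-HKO livers, against 63.2, 135 and 40.6 FPKM in ACSS2-flox livers. The highest ACSS2-HKO liver was below the lowest ACSS2-flox liver, and ACSS2-flox replicate 2 stood far above its own group. The means were 25.7 ± 9.40 and 79.6 ± 49.4 FPKM (SD, n = 3 each), a ratio of 0.323. On the log2(FPKM + 1) scale Cyp7a1 differed by -1.48 ± 0.44 (limma adjusted p = 0.623), the most negative value of the tested members. It ran from -1.87 to -1.02 as each library was left out, weakest without ACSS2-flox replicate 2, and was -1.26 without both distant libraries. An exact two-sided permutation test gave 0.1, the smallest p that 3 libraries against 3 allow. The gene lies on chromosome 4 at 6265612 to 6275633, minus strand (mm10), and its lowest library held at least 2610 fragments, so counting error was small beside the spread between livers. RNA from whole liver does not give the number of hepatocytes. In the same libraries Cyp27a1 had a log2 fold change of -0.19, and 9 of 11 tested hepatocyte markers were negative, with a median of -0.31. The part of hepatocyte number in the Cyp7a1 values was not tested.

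Cyp8b1, the sterol hydroxylase needed for cholic acid, followed the same order of libraries at both extremes, with ACSS2-flox replicate 2 highest and ACSS2-HKO replicate 3 lowest. It had 49.97, 71.0 and 47.8 FPKM in ACSS2-HKO livers, against 72.5, 159 and 49.9 FPKM in ACSS2-flox livers, and the groups overlapped. Its log2 fold change of -0.58 ± 0.39 (limma adjusted p = 0.735) rested on 1 control library and was -0.12 without ACSS2-flox replicate 2. The ratio of Cyp8b1 to Cyp7a1 FPKM, chosen after its values were seen, was 1.45, 2.66 and 3.01 in ACSS2-HKO livers, against 1.15, 1.18 and 1.23 in ACSS2-flox livers. In ACSS2-flox livers the pair thus kept nearly 1 ratio although each gene differed several-fold between those livers. Cyp7a1 alone also had separate groups, so this ratio is not separate evidence. A difference between libraries by transcript length can enter it, as the recovered lengths were 1950 bases for Cyp8b1 and 4173 for Cyp7a1. The ratio of this pair was not tested.

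The ring enzymes that follow them had overlapping groups. Hsd3b7, the steroid dehydrogenase that acts after the first hydroxylation, had 105, 125 and 95.5 FPKM in ACSS2-HKO livers, against 129.7, 94.1 and 96.5 FPKM in ACSS2-flox livers, a log2 fold change of 0.03 ± 0.20. Akr1d1, the reductase that bends the steroid ring system, had 56.2, 33.8 and 31.4 FPKM in ACSS2-HKO livers, against 61.7, 38.7 and 38.7 FPKM in ACSS2-flox livers (-0.20 ± 0.28). Replicate 1 was the highest library within each genotype for Akr1d1.

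The promoter of Cyp8b1 is shown because 2 motifs of the regulators that act on this gene lie next to each other in it. The sequence comes from the RefSeq window table (GRCm38.p6), ends at the base before the start site (chr9:121916306-121916425, minus strand), and has in capitals the HNF4 core CAAAGT and, after 1 base, the LRH-1 site CAAGGNCA.
Cyp8b1: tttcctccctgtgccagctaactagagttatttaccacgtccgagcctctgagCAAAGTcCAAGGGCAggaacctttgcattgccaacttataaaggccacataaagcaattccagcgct
LRH-1 (Nr5a2) is the receptor that SHP represses at bile acid genes, and HNF4 is a main activator of hepatocyte genes. Windows of 300 bases, 250 before the start and 50 from it on, were listed for 22 of the 31 genes and searched on both strands. The LRH-1 site was found in 2 of the 22, Cyp8b1 and Nr0b2 (the gene of SHP, at -201 to -194 from the start), and in 6.71% of all 32851 windows. The HNF4 core was found in 6 of 22 members and in 14.4% of all windows. The hexamer AGGTCA, bound by many nuclear receptors, was found in 9 of 22 members and in 16.3% of all windows. The window table is not complete, members can have several windows, and a match of letters is not a measured binding site.

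In the acidic pathway no enzyme had separate groups. Cyp27a1, the mitochondrial hydroxylase that starts it, had 92.5, 109 and 77.7 FPKM in ACSS2-HKO livers, against 103.5, 131 and 86.6 FPKM in ACSS2-flox livers (-0.19 ± 0.22). Cyp7b1, which hydroxylates oxysterols, had 7.58, 6.34 and 9.30 FPKM in ACSS2-HKO livers, against 8.30, 8.27 and 6.90 FPKM in ACSS2-flox livers (-0.02 ± 0.19). The level of Cyp7b1 was thus far under that of Cyp27a1 in each library. Cyp39a1, which acts on 24-hydroxycholesterol, had 36.2, 30.95 and 27.8 FPKM in ACSS2-HKO livers, against 9.85, 36.5 and 29.4 FPKM in ACSS2-flox livers. Only ACSS2-flox replicate 1 was low, and the log2 fold change of 0.49 ± 0.42 became -0.06 without it. Cyp2c70, which makes muricholic acids in mice, was the most abundant of the enzymes, with 371, 383 and 434 FPKM in ACSS2-HKO livers, against 439.9, 297 and 334 FPKM in ACSS2-flox livers (0.17 ± 0.21). It belongs to the Cyp2c family, whose members share sequence, and how such fragments were assigned is not given in the sources used here.

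Of the enzymes that shorten and conjugate the side chain, Acox2, the peroxisomal oxidase for branched chains, read higher. It had 97.0, 42.2 and 81.7 FPKM in ACSS2-HKO livers, against 40.1, 37.8 and 45.6 FPKM in ACSS2-flox livers. ACSS2-HKO replicates 1 and 3 were above all ACSS2-flox livers, while ACSS2-HKO replicate 2 lay among them. The means were 73.6 ± 28.3 and 41.2 ± 4.01 FPKM (SD, n = 3 each), a ratio of 1.79. This gave 0.74 ± 0.30 on the log2 scale (limma adjusted p = 0.637), which ran from 0.51 without ACSS2-HKO replicate 1 to 1.10 without ACSS2-HKO replicate 2. Amacr, the racemase that prepares the side chain for this oxidase, had 78.8, 87.0 and 71.96 FPKM in ACSS2-HKO livers, against 93.1, 61.5 and 73.0 FPKM in ACSS2-flox livers (0.08 ± 0.20). Baat, which joins bile acids to taurine, had 98.7, 113 and 104 FPKM in ACSS2-HKO livers, against 149, 107 and 101.5 FPKM in ACSS2-flox livers (-0.16 ± 0.20). For both genes the ACSS2-HKO livers lay within, or close to, the range of the ACSS2-flox livers.

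**Figure D2:**
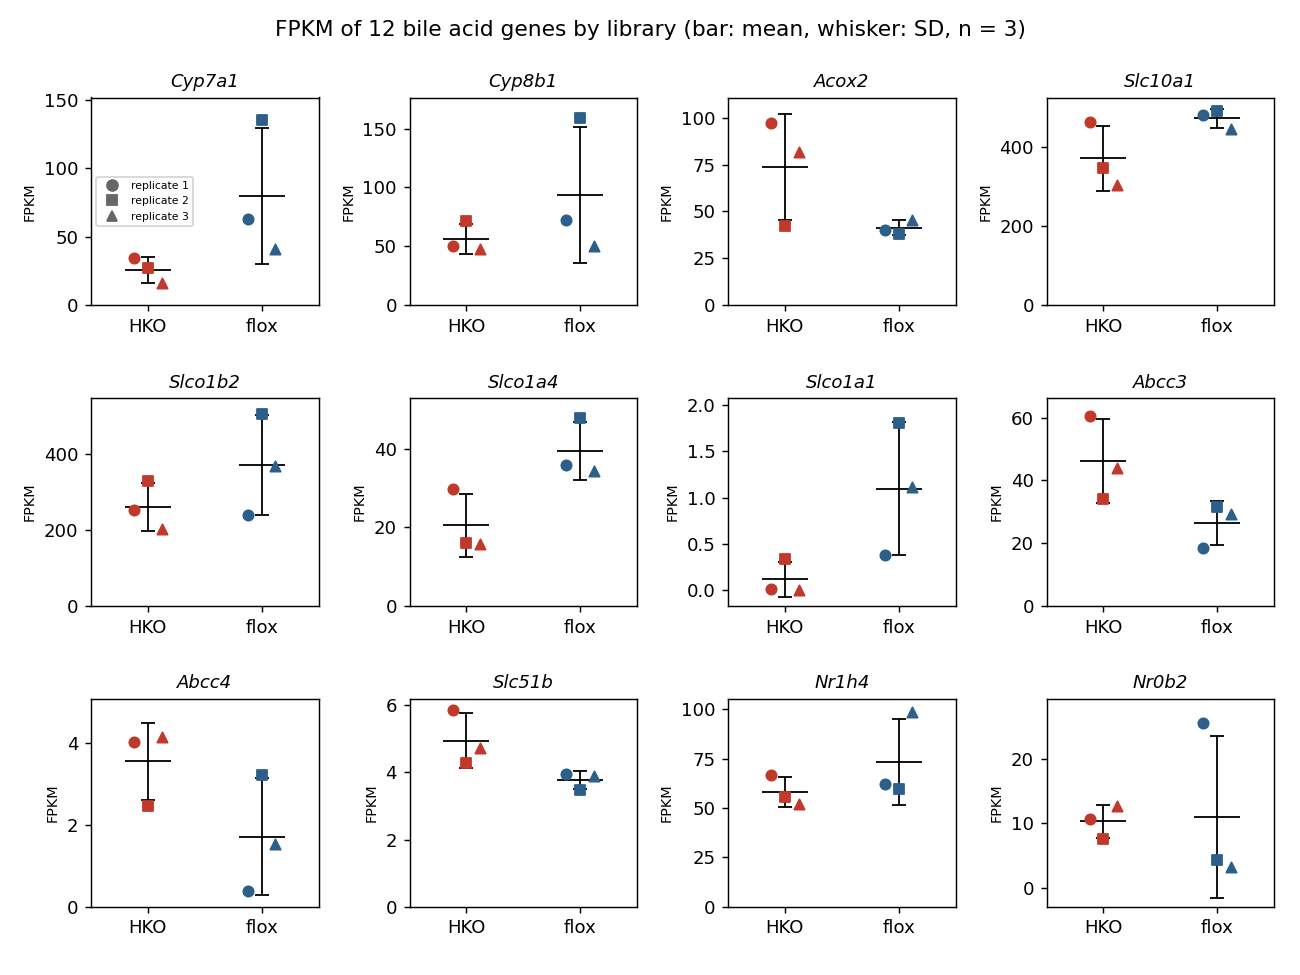
FPKM of 12 of the genes in each library (vertical axes linear, each gene on its own scale), ACSS2-HKO left and ACSS2-flox right; marker shape gives the replicate number, the horizontal bar the mean and the whisker the SD (n = 3). Cyp7a1 and Slco1a4 show separate groups with ACSS2-HKO lower, Abcc3 and Slc51b separate groups with ACSS2-HKO higher, and for Nr0b2 the ACSS2-flox value of 25.5 FPKM in replicate 1 stands above all other libraries.

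The sinusoidal uptake carriers had a median log2 fold change of -0.37 over the 5 tested, with 4 negative, and -0.24 without ACSS2-HKO replicate 3. All 6 were highest in ACSS2-flox replicate 2, and 5 were lowest in ACSS2-HKO replicate 3. Such extremes were not counted over all tested genes, so they are not shown to be particular to these carriers. Their summed level ran from 563 to 799.5 FPKM in ACSS2-HKO livers and from 794 to 1104 FPKM in ACSS2-flox livers. Slco1a4, an organic anion carrier, had 29.8, 16.1 and 15.8 FPKM in ACSS2-HKO livers, against 36.0, 48.0 and 34.4 FPKM in ACSS2-flox livers. The groups did not overlap, and ACSS2-HKO replicate 1 was nearest to the ACSS2-flox range. The means were 20.5 ± 7.995 and 39.5 ± 7.44 FPKM (SD, n = 3 each), a ratio of 0.520. Slco1a4 had a log2 fold change of -0.95 ± 0.27, and its limma adjusted p of 0.607 was the lowest among the members. It stayed between -1.24 and -0.81 with each library left out in turn, and was -0.86 without both distant libraries.

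Slco1a1, its close paralog, was almost silent in ACSS2-HKO livers, with 0.00713, 0.337 and 0 FPKM, against 0.374, 1.80 and 1.12 FPKM in ACSS2-flox livers. These values stood for 1, 48 and 0 fragments in ACSS2-HKO livers (49 in all), against 50, 266 and 170 in ACSS2-flox livers (486 in all). The groups did not overlap, but by little, since ACSS2-HKO replicate 2 nearly reached ACSS2-flox replicate 1. The ratio of means was 0.104. The difference on the log2(FPKM + 1) scale was -0.87, and when all genes were tested without the filter its limma adjusted p was 0.691. Slco1a1 is known as male-biased in mouse liver, and the sex of the animals is not given in the sources used here. Beside it, 4 Y-linked genes read at most 0.0162 FPKM and 3 fragments in any library, so none was above a trace in either genotype. A list of 10 male-biased genes, 4 of them tested, summed to 62.6 to 226 FPKM in ACSS2-HKO livers and 71.4 to 123 FPKM in ACSS2-flox livers. A list of 10 female-biased genes was negative in 10 of 10, with a median of -0.45, and of -0.22 without both distant libraries. None of the 10 female-biased genes had separate groups. Their sums overlapped, at 2051 to 3158 FPKM in ACSS2-HKO livers and 3019 to 3617 FPKM in ACSS2-flox livers. The part of Y-linked and sex-biased genes in the values of Slco1a1, Slco1a4 or the other members was not tested.

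Slco1b2, the main organic anion carrier of mouse hepatocytes, had 252, 329 and 203 FPKM in ACSS2-HKO livers, against 239, 504 and 369 FPKM in ACSS2-flox livers. The groups overlapped through the low ACSS2-flox replicate 1, and the log2 fold change of -0.46 ± 0.31 (limma adjusted p = 0.730) was -0.21 without ACSS2-flox replicate 2 and -0.75 without ACSS2-flox replicate 1. Slc10a1, the sodium-dependent bile acid carrier NTCP, had the highest mean of the 31 genes over the 6 libraries, with 464, 346 and 303 FPKM in ACSS2-HKO livers, against 481, 490.5 and 445 FPKM in ACSS2-flox livers. ACSS2-HKO replicates 2 and 3 were below every ACSS2-flox liver, while ACSS2-HKO replicate 1 lay among them. The means were 371 ± 83.2 and 472 ± 23.8 FPKM (SD, n = 3 each), at -0.37 ± 0.21 on the log2 scale (limma adjusted p = 0.694). Slco2b1, another organic anion carrier, had 44.9, 38.7 and 32.4 FPKM in ACSS2-HKO livers, against 35.5, 47.4 and 45.7 FPKM in ACSS2-flox livers (-0.15 ± 0.20). Slc10a5, a relative of Slc10a1, had 9.22, 9.77 and 8.20 FPKM in ACSS2-HKO livers, against 2.12, 13.1 and 10.5 FPKM in ACSS2-flox livers. It was the exception in direction among the carriers, at 0.33 ± 0.50, and was -0.34 without the low ACSS2-flox replicate 1.

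Slco1b2, Slco1a4 and Slco1a1 lie in this order on chromosome 6, at 141629518 to 141686646 (plus strand), 141805440 to 141856199 (minus strand) and 141907282 to 141946962 (minus strand) in mm10. Paralogs of this locus share sequence, and how the counting treated shared fragments is not given in the sources used here. Their neighbours Slco1a5, Slco1a6 and Slco1c1, chosen after their values were seen, reached at most 0.0325 FPKM in any library. The FPKM ratio of Slco1b2 to Slco1a4 was 8.46, 20.5 and 12.9 in ACSS2-HKO livers, against 6.64, 10.5 and 10.7 in ACSS2-flox livers, so this ratio overlapped between genotypes.

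The canalicular exporters had a median log2 fold change of 0.22 with 5 of 6 positive, and of 0.02 with 3 of 6 positive without ACSS2-flox replicate 1. None had separate groups. Abcb11, the bile salt export pump, had 108, 165 and 90.7 FPKM in ACSS2-HKO livers, against 77.8, 128 and 110.5 FPKM in ACSS2-flox livers (0.18 ± 0.28). ACSS2-HKO replicate 2 was the highest library, and without it the value was -0.06. Abcb4, which moves phosphatidylcholine into bile, had 74.8, 76.3 and 50.6 FPKM in ACSS2-HKO livers, against 48.6, 100.4 and 81.0 FPKM in ACSS2-flox livers (-0.15 ± 0.29). Abcc2, which exports conjugates such as those of bilirubin, had 60.4, 50.7 and 63.4 FPKM in ACSS2-HKO livers, against 25.5, 74.0 and 60.9 FPKM in ACSS2-flox livers. ACSS2-flox replicate 1 held the lowest value of both genes, and the log2 fold change of Abcc2, 0.24 ± 0.36, was -0.21 without it.

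The promoters of Abcb11, a textbook target of FXR, and of Slco1b2 are shown because they were the 2 of 22 members whose window held the FXR inverted repeat, a pair of AGGTCA hexamers that face each other with 1 base between them, at up to 2 mismatches. It was found in 1.14% of all windows. Both sequences (RefSeq, GRCm38.p6) end at the base before the start site, for Abcb11 chr2:69342617-69342736 on the minus strand and for Slco1b2 chr6:141629398-141629517 on the plus strand. Capitals mark the inverted repeats.
Abcb11: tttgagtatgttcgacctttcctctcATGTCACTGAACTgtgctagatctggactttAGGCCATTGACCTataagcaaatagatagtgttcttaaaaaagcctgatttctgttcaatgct
Slco1b2: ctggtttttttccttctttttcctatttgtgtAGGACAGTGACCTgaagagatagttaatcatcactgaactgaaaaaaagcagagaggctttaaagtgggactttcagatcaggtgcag
In Abcb11 the matches lay at -94 to -82 with 2 mismatches and at -63 to -51 with 1, and in Slco1b2 at -88 to -76 with 1. The hexamer found at -56 to -51 of Abcb11 and at -81 to -76 of Slco1b2 is part of these repeats. Between genotypes the genes differed in opposite directions, 0.18 for Abcb11 and -0.46 for Slco1b2, each within the spread between livers.

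Abcg5 and Abcg8 form the heterodimer that secretes cholesterol into bile, and their levels followed each other. Abcg5 had 40.3, 32.5 and 33.6 FPKM in ACSS2-HKO livers, against 46.5, 15.4 and 27.6 FPKM in ACSS2-flox livers (0.37 ± 0.35). Abcg8 had 30.5, 25.1 and 27.9 FPKM in ACSS2-HKO livers, against 29.7, 11.9 and 25.6 FPKM in ACSS2-flox livers (0.39 ± 0.31). Both were lowest in ACSS2-flox replicate 2, the library in which Cyp7a1 and Cyp8b1 were highest, and leaving it out brought Abcg5 to -0.02 and Abcg8 to 0.01. The ratio of Abcg5 to Abcg8 was 1.32, 1.3 and 1.2 in ACSS2-HKO livers, against 1.57, 1.3 and 1.08 in ACSS2-flox livers. The genes run away from each other. RefSeq lists 2 start sites for Abcg8, the further 1 inside the span of Abcg5. The sequence between the start of Abcg5 and the nearer Abcg8 start is shown because 1 short stretch separates them (chr17:84683012-84683120, plus strand, GRCm38.p6, 109 bases, none of the searched motifs in it).
Abcg5-Abcg8: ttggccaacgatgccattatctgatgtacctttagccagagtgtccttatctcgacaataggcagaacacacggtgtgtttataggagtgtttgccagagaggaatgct
In the mm10 gene annotation the 2 genes overlap on opposite strands, at 84658234 to 84683011 for Abcg5 and 84676302 to 84700333 for Abcg8, and whether counting used strand is not given in the sources used here. Fragments from the overlap cannot then be told apart. Atp8b1, the flippase that keeps the canalicular membrane asymmetric, had 4.51, 7.13 and 4.33 FPKM in ACSS2-HKO livers, against 3.50, 5.13 and 4.79 FPKM in ACSS2-flox livers (0.19 ± 0.23). ACSS2-HKO replicate 2 alone stood above the ACSS2-flox range.

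The genes grouped as basolateral exporters, among them carriers that return bile acids to the blood, had the highest median log2 fold change of the roles, 0.54. This median was 0.40 without ACSS2-flox replicate 1 and 0.36 without both distant libraries. The summed levels of these exporters overlapped narrowly, at 59.8 to 89.4 FPKM in ACSS2-HKO livers against 39.1 to 60.9 FPKM in ACSS2-flox livers. Abcc3 (MRP3) had 60.3, 33.9 and 43.9 FPKM in ACSS2-HKO livers, against 18.5, 31.5 and 29.2 FPKM in ACSS2-flox livers. The groups did not overlap, with ACSS2-HKO replicate 2 close to the top of the ACSS2-flox range. The means were 46.1 ± 13.4 and 26.4 ± 6.94 FPKM (SD, n = 3 each), a ratio of 1.74. Abcc3 had 0.78 ± 0.27 on the log2 scale (limma adjusted p = 0.637), and 0.55 without ACSS2-flox replicate 1. The gene lies on chromosome 11 at 94343295 to 94392997, minus strand (mm10).

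Abcc4 (MRP4), an exporter of bile acids and cyclic nucleotides, had 4.02, 2.47 and 4.15 FPKM in ACSS2-HKO livers, against 0.382, 3.21 and 1.53 FPKM in ACSS2-flox livers. ACSS2-flox replicate 1 was several-fold below the other libraries, and ACSS2-flox replicate 2 lay within the ACSS2-HKO range. The log2 fold change of 0.87 ± 0.38 (limma adjusted p = 0.649) was 0.45 without ACSS2-flox replicate 1. Slc51b, the beta subunit of the organic solute transporter, had 5.85, 4.28 and 4.72 FPKM in ACSS2-HKO livers, against 3.95, 3.47 and 3.90 FPKM in ACSS2-flox livers. Its groups did not overlap, and its log2 fold change of 0.31 ± 0.18 (limma adjusted p = 0.692) stayed between 0.20 and 0.39 with each library left out. These values stood for few fragments, 101, 75 and 91 in ACSS2-HKO livers against 65, 63 and 73 in ACSS2-flox livers. Slc51a, the alpha subunit, was looked for but not found under that name among the genes of the table. Abcc6, a transporter whose loss leads to ectopic calcification, had 19.2, 19.1 and 14.8 FPKM in ACSS2-HKO livers, against 16.2, 22.7 and 19.1 FPKM in ACSS2-flox livers (-0.12 ± 0.20). It thus differed from the other exporters of this membrane in the sign of its value, though its groups overlapped.

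**Figure D3:**
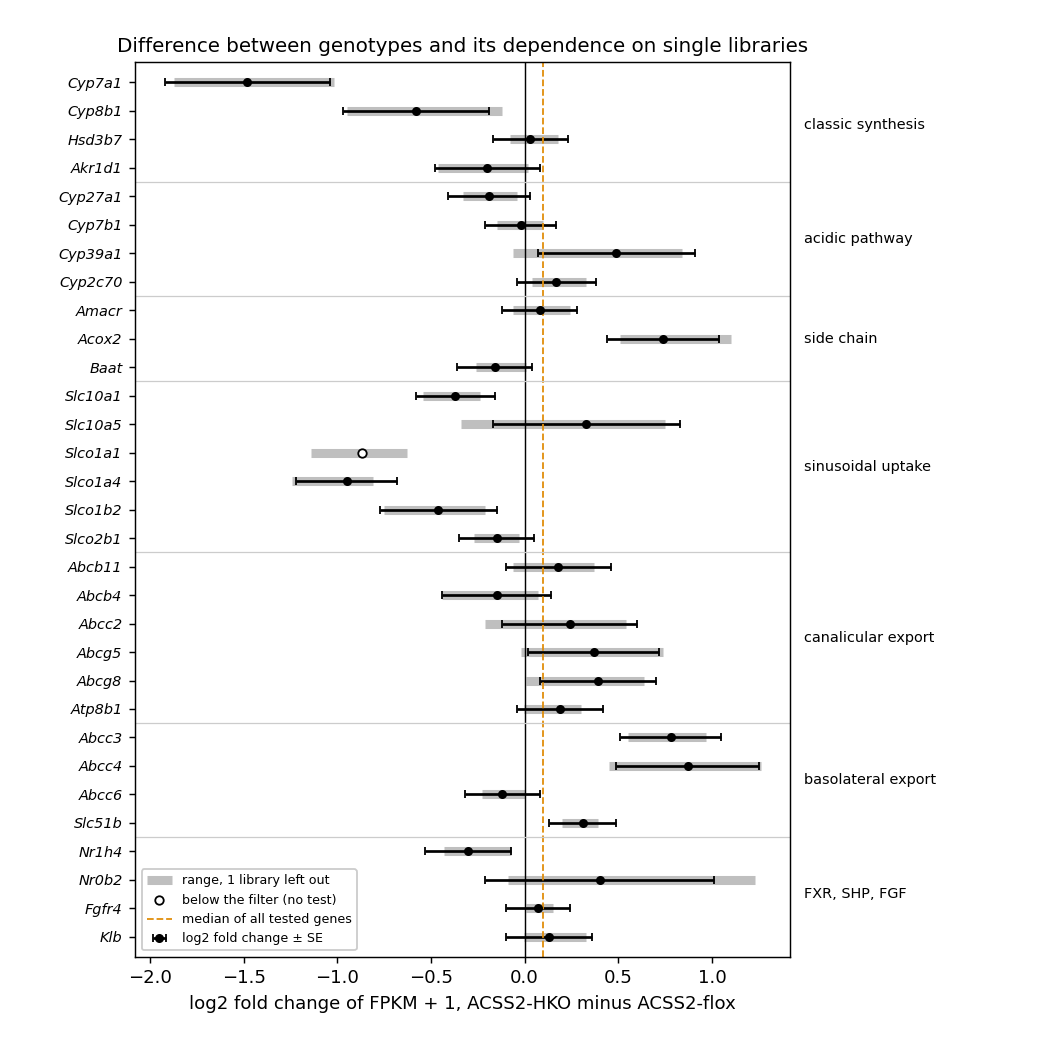
Log2 fold change of FPKM + 1 for each gene (horizontal axis, ACSS2-HKO minus ACSS2-flox), with points for the estimate, black bars for its SE, grey bands for the range as each of the 6 libraries is left out, and a dashed line at the median of all tested genes, 0.10. The bands of Cyp7a1, Slco1a4, Abcc3, Acox2 and Abcc4 stay on 1 side of 0, while those of Cyp39a1, Slc10a5, Abcc2 and Nr0b2 cross it.

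For the receptors, Nr1h4, which encodes FXR, had 66.7, 55.5 and 52.0 FPKM in ACSS2-HKO livers, against 61.9, 59.7 and 98.4 FPKM in ACSS2-flox livers. The groups overlapped, and the log2 fold change of -0.30 ± 0.23 was -0.07 without ACSS2-flox replicate 3. Nr0b2, which encodes SHP, had 10.7, 7.56 and 12.7 FPKM in ACSS2-HKO livers, against 25.5, 4.28 and 3.26 FPKM in ACSS2-flox livers. All ACSS2-HKO livers lay between ACSS2-flox replicate 1 and the other ACSS2-flox livers, so the means of 10.3 ± 2.58 and 10.99 ± 12.5 FPKM (SD, n = 3 each) hide an ordering that 1 library sets. The log2 fold change was 0.40 ± 0.61 with all libraries, 1.23 without ACSS2-flox replicate 1 and -0.09 without ACSS2-flox replicate 3. Fgfr4, the receptor of the intestinal FGF signal, had 7.61, 9.04 and 8.71 FPKM in ACSS2-HKO livers, against 7.21, 8.97 and 7.86 FPKM in ACSS2-flox livers (0.07 ± 0.17, the smallest standard error of the members). Klb, its co-receptor beta-Klotho, had 10.8, 11.6 and 6.92 FPKM in ACSS2-HKO livers, against 7.06, 10.3 and 8.91 FPKM in ACSS2-flox livers (0.13 ± 0.23). Neither receptor gene differed beyond the spread between livers.

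Across the 31 genes, 13 were highest in ACSS2-flox replicate 2 and 12 lowest in ACSS2-HKO replicate 3, and 9 were lowest in ACSS2-flox replicate 1. The share of all tested genes with these extremes was not counted, so the counts are not shown to be particular to the members. ACSS2-flox replicate 1 read low mainly for long transcripts. Against the mean of the other ACSS2-flox libraries, its median difference (log2) was -0.21 over the 30 tested members and -0.27 over all tested genes. It was below 0 for 13 of the 15 members with the longer recovered transcript length, with a median of -0.39, and for 6 of the 15 shorter ones, with a median of 0.08. A recovered length may be a whole fraction of the length used by the authors, so single genes may stand on the wrong side of this split. Without ACSS2-flox replicate 1, 2 members were higher and 3 lower at an unadjusted limma p under 0.05, against 5.11% and 4.69% of all tested genes, and the member median was 0.00 against 0.01. Without ACSS2-HKO replicate 3, 1 was higher and 2 lower, against 2.87% and 0.754%.

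**Figure D4:**
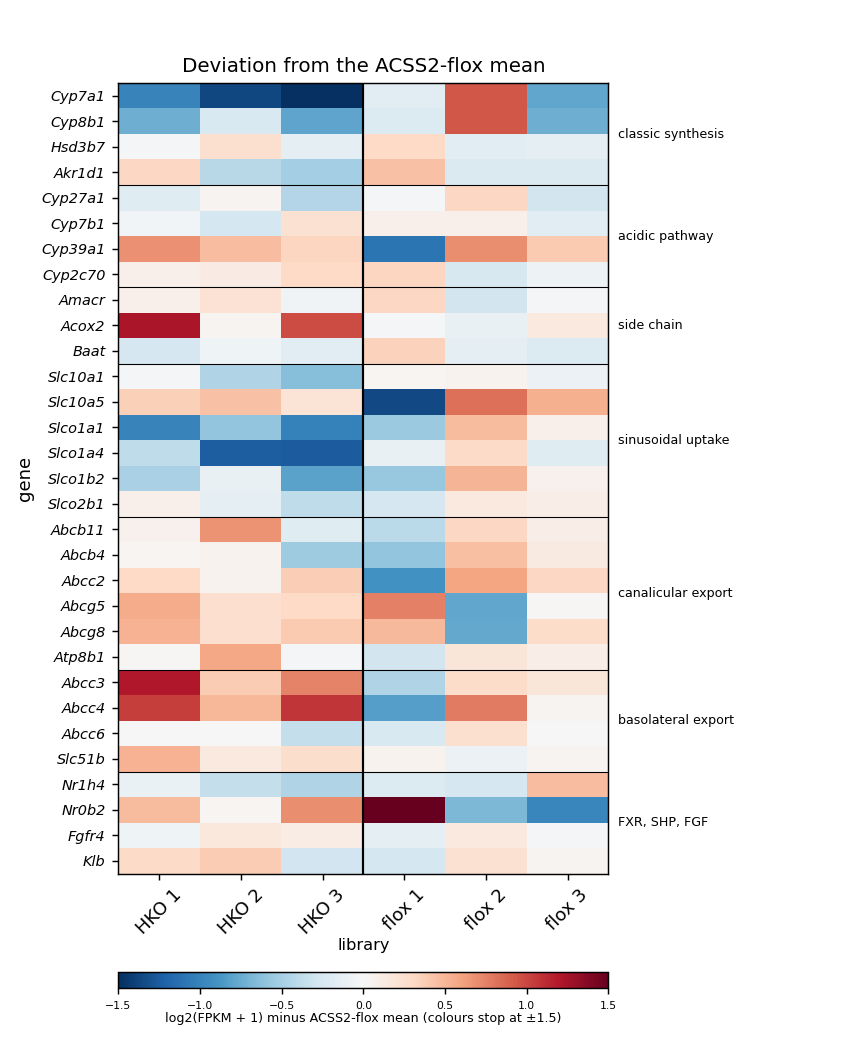
Heat map of the 31 genes (rows, by role) in the 6 libraries (columns, ACSS2-HKO left of ACSS2-flox), coloured by log2(FPKM + 1) minus the ACSS2-flox mean of that gene, with colours ending at 1.5 in either direction. Cyp7a1 is blue in all ACSS2-HKO columns, and the column of ACSS2-flox replicate 1 departs from its own group for Cyp39a1, Slc10a5, Abcc2, Abcc4 and Nr0b2.

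Other genes of these pathways were counted from lists of textbook members, and 0 of any list passed the limma adjusted threshold. Counts of positive values and medians are to be read against 66.0% and 0.10 over all tested genes. Of other bile acid synthesis genes, 4 of the 11 tested had a positive and 7 a negative value (median -0.19). Abcd3, the peroxisomal carrier of bile acid precursors, read lower in each ACSS2-HKO liver, with 126, 111 and 82.9 FPKM, against 131, 159 and 160.2 FPKM in ACSS2-flox livers (-0.51 ± 0.21, limma adjusted p = 0.649). The acyl-CoA ligases Slc27a2 and Slc27a5 had -0.53 ± 0.24 and -0.33 ± 0.20, and Fdx1, the electron donor of CYP27A1, had -0.38 ± 0.24, each with overlapping groups. Without ACSS2-flox replicate 1 the value of Fdx1 was -0.12, and without both distant libraries that of Slc27a2 was -0.24. Without ACSS2-HKO replicate 3 that of Abcd3 was -0.34. Of other bile formation genes, 9 of 16 were positive (median 0.04, and -0.07 without ACSS2-flox replicate 1). Ezr, which ties membrane proteins to actin, had 3.10, 3.75 and 5.68 FPKM in ACSS2-HKO livers, against 1.74, 2.69 and 2.64 FPKM in ACSS2-flox livers (0.61 ± 0.23). Myo5b, the motor that carries transporters to the canaliculus, had 0.42 ± 0.17 with separate groups, and Aqp8, the canalicular water channel, -0.66 ± 0.31 with separate groups. Aqp8 was highest in ACSS2-flox replicate 1, and its value was -0.31 without that library.

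Of the other sensors and partners of FXR, 9 of 13 were positive, a share close to that of all tested genes (median 0.18, and 0.09 without ACSS2-flox replicate 1). Nr1i3 and Nr1i2, the xenobiotic receptors CAR and PXR, had -0.53 ± 0.23 and -0.54 ± 0.34, and the hepatocyte factor Onecut1 had 0.74 ± 0.35. Each of these named genes had overlapping groups. Of the 13 tested, 3 had separate groups, all in the higher direction, against 12.5% of all tested genes. Without ACSS2-flox replicate 1 the values were -0.33 for Nr1i3 and 0.37 for Onecut1, and without ACSS2-HKO replicate 3 that of Nr1i2 was -0.34. Of the genes listed as other FXR targets, 4 of 9 were positive (median -0.05, and -0.23 without ACSS2-flox replicate 1). Sdc1, a heparan sulphate proteoglycan, had 0.49 ± 0.22 with separate groups, Apoc2 -0.43 ± 0.26, Pdk4 -0.46 ± 0.67 and Cyp2b10 1.31 ± 1.37. Cyp2b10 was also counted in the list of genes that detoxify bile acids. Without ACSS2-flox replicate 1 the values were 0.31 for Sdc1, -1.29 for Pdk4 and -0.23 for Cyp2b10, and without ACSS2-HKO replicate 3 they were -0.15 for Apoc2 and -0.12 for Pdk4.

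Of the genes that detoxify bile acids, 3 of 9 were positive and 6 negative (median -0.26). Sult2a8, a sulphotransferase of mouse liver that acts on bile acids, had 32.1, 61.2 and 30.6 FPKM in ACSS2-HKO livers, against 185, 134 and 84.3 FPKM in ACSS2-flox livers. Every ACSS2-HKO liver was below every ACSS2-flox liver. The means were 41.3 ± 17.2 and 134 ± 50.3 FPKM (SD, n = 3 each), a ratio of 0.307. Sult2a8 had -1.68 ± 0.35 on the log2 scale (limma adjusted p = 0.494), between -1.99 and -1.41 with each library left out. Papss2, which makes the sulphate donor, had -0.66 ± 0.29, Sult2a1 -0.53 ± 0.28 and Cyp2c55 -0.41 ± 0.23, all with overlapping groups. Without ACSS2-flox replicate 1 the values were -0.39 for Papss2 and -0.31 for Sult2a1, and without ACSS2-HKO replicate 3 they were -0.35 for Sult2a1 and -0.21 for Cyp2c55.

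Markers of cell types and states were read beside these genes, with 66.0% positive and a median of 0.10 over all tested genes, and the part of any of them in the values above was not tested. Of the 12 hepatocyte markers listed 11 were in the table, and 9 of 11 were negative (median -0.31, and -0.13 without both distant libraries). Their sum was 51220.0 to 60140.0 FPKM in ACSS2-HKO livers and 60760.0 to 90970.0 FPKM in ACSS2-flox livers. Acute phase genes were positive in 15 of 15 tested (median 1.48), with sums of 12040.0 to 49980.0 FPKM in ACSS2-HKO livers and 7104 to 9217 FPKM in ACSS2-flox livers, highest in ACSS2-HKO replicate 3, without which the median was 0.95. Kupffer cell and macrophage markers were positive in 12 of 12 (median 0.90, and 0.53 without ACSS2-HKO replicate 3), with sums of 882 to 2180.0 FPKM in ACSS2-HKO livers and 466 to 756 FPKM in ACSS2-flox livers. Neutrophil markers were positive in 5 of 5 tested (median 2.48, and 1.57 without that library), with sums of 39.7 to 364 FPKM in ACSS2-HKO livers and 8.45 to 18.1 FPKM in ACSS2-flox livers. Cholangiocyte markers were positive in 3 of 4 tested (median 0.22, and 0.09 without that library), with overlapping sums of 42.2 to 79.3 FPKM in ACSS2-HKO livers and 32.7 to 64.6 FPKM in ACSS2-flox livers. The highest value of a single marker in any library was 66.9 FPKM for the cholangiocyte list and 59760.0 FPKM for the hepatocyte list. Sums of these lists can thus follow a single marker. Stellate markers had a median of 0.24 and endothelial markers of 0.36 (9 of 10 positive), with overlapping sums. Both turned without ACSS2-flox replicate 1, to -0.03 for stellate and -0.14 for endothelial markers (2 of 10 positive). No marker of these lists was at 0 in every library. Clock genes, which drive the daily rhythm of Cyp7a1, were negative in 10 of 13 (median -0.34). Their sums were 117 to 140.2 FPKM in ACSS2-HKO livers and 163 to 258 FPKM in ACSS2-flox livers, and the hour of tissue collection is not given in the sources used here.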

How the data were processed

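Per the labels' protocols, liver RNA libraries came from a VAHTS Universal V6 preparation kit. The authors deposited 1 table of FPKM values, a column per library. The submitters' processing notes name mm10 and DESeq2 without a role. The aligner is not given in the sources used here, nor the annotation or counting tool. FPKM is a share of a library, so abundant genes that gain fragments lower the others.

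Each column was matched to its sample by title, and the genotype label set its group. From the deposited FPKM, log2(FPKM + 1) was tested for 9818 genes (mean of 1 FPKM or more) with limma 3.58.1 in R 4.3.3, using lmFit and eBayes with a trend. Two-sided p-values were adjusted by Benjamini-Hochberg over all of them, at a threshold of 0.05. For single genes the exact permutation test, with 20 arrangements, has a smallest p of 0.1. The fits were tested on simulated data. FPKM values gave whole fragment counts, within 0.01, for 16134 of 16135 genes (99.99%). They are the smallest whole counts that the values allow, and of the implied totals 99.22% to 99.42% lay in the table. Counting error covers sampling of fragments only.

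The members and lists were chosen with earlier results of these data known. The genes named are the 31 members, Acss2 and, of each pathway list, up to 4 tested genes of smallest unadjusted p; any other gene is marked as picked later, and 2 genes that the rule takes are not reported here. Lists are described by counts and medians, to be read against those of all tested genes, without a test of the list. Positions of genes are from the GENCODE M21 annotation of mm10, and promoter sequences from RefSeq windows on GRCm38.p6. Alternatives were other pseudocounts, filters and scalings, a replicate block, and libraries left out. Voom on recovered fragments and a gene length correction (loess, span 0.5) were added after the data were seen.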

Additional observations from a re-analysis of the deposited data

How the results depend on the processing

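No member reached a limma adjusted p under 0.05 under any of the 16 alternatives run, and of 490 member values under them 453 kept the sign of the value reported. The 15 members that kept it throughout were Cyp7a1, Cyp8b1, Cyp27a1, Cyp2c70, Acox2, Slc10a1, Slco1a1, Slco1a4, Slco1b2, Slco2b1, Abcg8, Abcc3, Abcc4, Slc51b and Nr1h4. The other filters and the replicate block could not turn a sign, because they leave each log2 fold change as it is. The limma adjusted p of Cyp7a1 ran from 0.174 (replicate block) to 1.0.

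Sign changes of single genes were as follows, on the log2 scale. With median-ratio scaling the values were -0.101 for Hsd3b7, -0.0514 for Amacr and -0.0466 for Fgfr4, and with trimmed mean of M-values scaling -0.0976, -0.0479 and -0.0434. With the gene length correction they were -0.0691 for Hsd3b7, -0.0119 for Amacr, -0.0576 for Fgfr4 and -0.000252 for Klb. Without both distant libraries they were 0.169 for Akr1d1, 0.0195 for Baat, -0.281 for Slc10a5, -0.275 for Abcc2, -0.0155 for Fgfr4 and -0.300 for Cyp2b10. With 1 library left out the ranges crossed 0 for Hsd3b7 (-0.0778 to 0.176), Akr1d1 (-0.461 to 0.0156), Cyp7b1 (-0.149 to 0.0952), Cyp39a1 (-0.0553 to 0.838), Amacr (-0.0606 to 0.235), Baat (-0.265 to 0.0121), Slc10a5 (-0.344 to 0.746), Abcb11 (-0.0613 to 0.366), Abcb4 (-0.442 to 0.0749), Abcc2 (-0.210 to 0.541), Abcg5 (-0.0219 to 0.744), Atp8b1 (-0.00314 to 0.302), Abcc6 (-0.232 to 0.000786), Nr0b2 (-0.0888 to 1.23), Klb (-0.00469 to 0.332), Cyp2b10 (-0.232 to 2.40) and Pdk4 (-1.29 to 0.201). The causes were not tested.

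Of all tested genes, 745 had an unadjusted p under 0.05, 1129 without a filter and 430 with a filter at 5 FPKM, which change how many genes are tested, and 356 (without ACSS2-HKO replicate 3) to 962 with 1 library left out. The 0 genes past the adjusted threshold became 3 without ACSS2-HKO replicate 2, the highest of a range of 0 to 3. The replicate block gave 4. Same-numbered libraries did not deviate together (correlations of 0.013, 0.003 and -0.063), so the numbers were not taken to pair libraries. The count of 5 members at the unadjusted threshold became 3 with either other scaling and ran from 3 to 5 with 1 library left out, being 3 without ACSS2-HKO replicate 1 or 3. The count of 4 members whose groups did not overlap became 2 with the gene length correction and 15 without both distant libraries, and ran from 5 to 11 with 1 library left out, where fewer libraries make separate groups more frequent. Over all tested genes the groups were separate for 15.5% with the deposited values, 15.5% with the gene length correction, 41.0% without both distant libraries and 20.3% to 31.1% with 1 library left out. The member median, 0.074, ran from -0.001 to 0.106 with 1 library left out. Slco1a1, the least abundant member, had -2.62 with a pseudocount of 0.1 and -0.248 with 5, and its depth in ACSS2-HKO livers, at most 48 fragments, limits its precision.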

Other observations

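Values outside the comparisons above were chosen after they were seen. Sult2a5, another gene of the sulphotransferase family of Sult2a8, had 4.89, 9.83 and 3.003 FPKM in ACSS2-HKO livers, against 26.1, 14.8 and 10.7 FPKM in ACSS2-flox livers. Its groups did not overlap, at -1.43 ± 0.41 on the log2 scale, and its limma adjusted p of 0.607 ranks with those of Slco1a4 and Cyp7a1. ACSS2-flox replicate 1 was its highest library, and without that library the value was -1.10. The genes of this family share sequence, and how shared fragments were counted is not given in the sources used here.

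The FPKM ratio of Cyp7a1 to Cyp27a1, the enzymes that start the classic and the acidic pathway, was 0.374, 0.245 and 0.204 in ACSS2-HKO livers, against 0.610, 1.03 and 0.469 in ACSS2-flox livers. Every ACSS2-HKO liver had the lower ratio. As both genes are read in the same library, this ratio does not depend on the scaling between libraries. A difference between libraries by transcript length can still enter it, as the recovered lengths were 4173 bases for Cyp7a1 and 2395 for Cyp27a1. Cyp7a1 alone also had separate groups, so the ratio is not separate evidence. The ratio was not tested.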
